A study of Mus musculus with 3 samples.

Results

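The genes described here are those that build, cross-link and cut the collagenous matrix of the liver: all collagen chains, the matrix metalloproteinases (Mmp), their tissue inhibitors (Timp), the lysyl oxidases (Lox and Loxl), the ligands Tgfb1, Tgfb2 and Tgfb3, the matricellular protein Sparc and the small leucine-rich proteoglycans Lum and Bgn. They were chosen by gene name alone, and 78 of the 31829 gene names on the array met the rule: 40 collagens, 23 metalloproteinases, 4 inhibitors, 5 lysyl oxidases, 3 ligands, and Sparc, Lum and Bgn. The study measured total RNA of hepatocytes from wild-type male C57BL/6 mice, freed from the liver by collagenase digestion after an overnight fast, on 3 one-colour Agilent arrays. The anti-VLA-4 group was given a high-fat diet for 16 weeks from an age of 6 weeks, with intraperitoneal injections of a blocking antibody to the integrin VLA-4, 2 a week, over the last 6 weeks. The HFD-IgG group had the same diet and the same schedule of control IgG. The standard diet group was kept on a standard diet for 16 weeks and has no injection listed, so HFD-IgG and standard diet differ in diet and injection together. All mice were 22 weeks old, and the number of mice behind each array is not stated in the labels. Each group is 1 array, so no difference has a replicate check and none was tested.

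Collagens are triple helices of chains in which a triplet that starts with glycine repeats. Fibrillar collagens give tissue its tensile strength, collagen IV forms the sheet of basement membranes, and collagen VI forms microfibrils near cells. In the liver, stellate cells and portal fibroblasts are the main producers of fibrillar collagen, and they also secrete Timps, which hold metalloproteinases inactive. TGF-beta is the best known inducer of collagen transcription in stellate cells, and lysyl oxidases cross-link the finished fibrils. VLA-4 is the integrin alpha4 beta1 of leukocytes, which binds VCAM-1 and fibronectin.

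A level here is the processed signal of a gene's brightest probe divided by the 75th percentile of its own array, so levels compare arrays for 1 gene but not genes with each other. The 75th percentile was 514 for anti-VLA-4, 500.3 for HFD-IgG and 574 for standard diet. A probe whose signal the scanner software does not call well above background has only an upper limit, and a fold against it is a bound, written as at least so many fold. A probe that is so called is said to pass. The lowest level well above background was 0.0224 for anti-VLA-4, 0.0315 for HFD-IgG and 0.0257 for standard diet.

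Of the 78 genes, 77 had a usable spot on all arrays, and 53 were well above background on at least 1 array. The number well above background was 43 for anti-VLA-4, 44 for HFD-IgG and 30 for standard diet. This is 55.8%, 57.1% and 39.0% of the 77 in that order, beside 61.8%, 66.4% and 56.9% of all genes. Among the 53 genes that passed somewhere, 8 did so on HFD-IgG only, 10 on both high-fat diet arrays but not on standard diet, 5 on anti-VLA-4 only and 2 on standard diet only. These patterns were not counted over all genes, which also passed most often on HFD-IgG, so they are no result about the matrix genes. The 24 genes that did not pass on any array were Col2a1, Col8a1, Col9a1, Col9a3, Col11a1, Col12a1, Col17a1, Col19a1, Col22a1, Col24a1, Col28a1, Mmp1a, Mmp3, Mmp9, Mmp10, Mmp16, Mmp20, Mmp21, Mmp23, Mmp25, Mmp28, Timp4, Lox and Loxl1 by its brightest probe. No statement on a fold is made for them. Mmp9, the gelatinase of leukocytes, did not pass with 10 spots on each array.

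Relative to standard diet, collagen and inhibitor genes stood higher on the HFD-IgG array as a group. Of the 48 genes that could be compared, 26 lay at least 2-fold above standard diet and 2 at least 2-fold below, with a median log2 difference of 1.21, while 20.4% of all genes were at least 2-fold higher and 2.42% at least 2-fold lower, with a median of 0.04. Under quantile scaling the matrix genes gave 19 higher, 6 lower and a median of 0.39, beside 11% and 12.2% of all genes. The collagens gave 16 of 26 higher and none lower, the inhibitors 3 of 3 higher, and the metalloproteinases 3 of 11 higher and 2 lower. With anti-VLA-4 over HFD-IgG, 18 of 51 genes lay at least 2-fold below HFD-IgG and 1 above, with a median of -0.59, while 16.5% of all genes were lower, 1.9% were higher, and their median was -0.06. Of these 18 calls, 1 held under normexp background correction. Against standard diet, 19 of 45 genes on the anti-VLA-4 array lay at least 2-fold above and 2 below, with a median of 0.82, while 7.99% of all genes were higher, 3.39% were lower, and their median was 0.00. Each pair of these comparisons shares 1 array, so their counts are not independent of each other. The anti-VLA-4 array lay on a different slide from the other 2, and slide and antibody cannot be told apart.

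**Figure D1:**
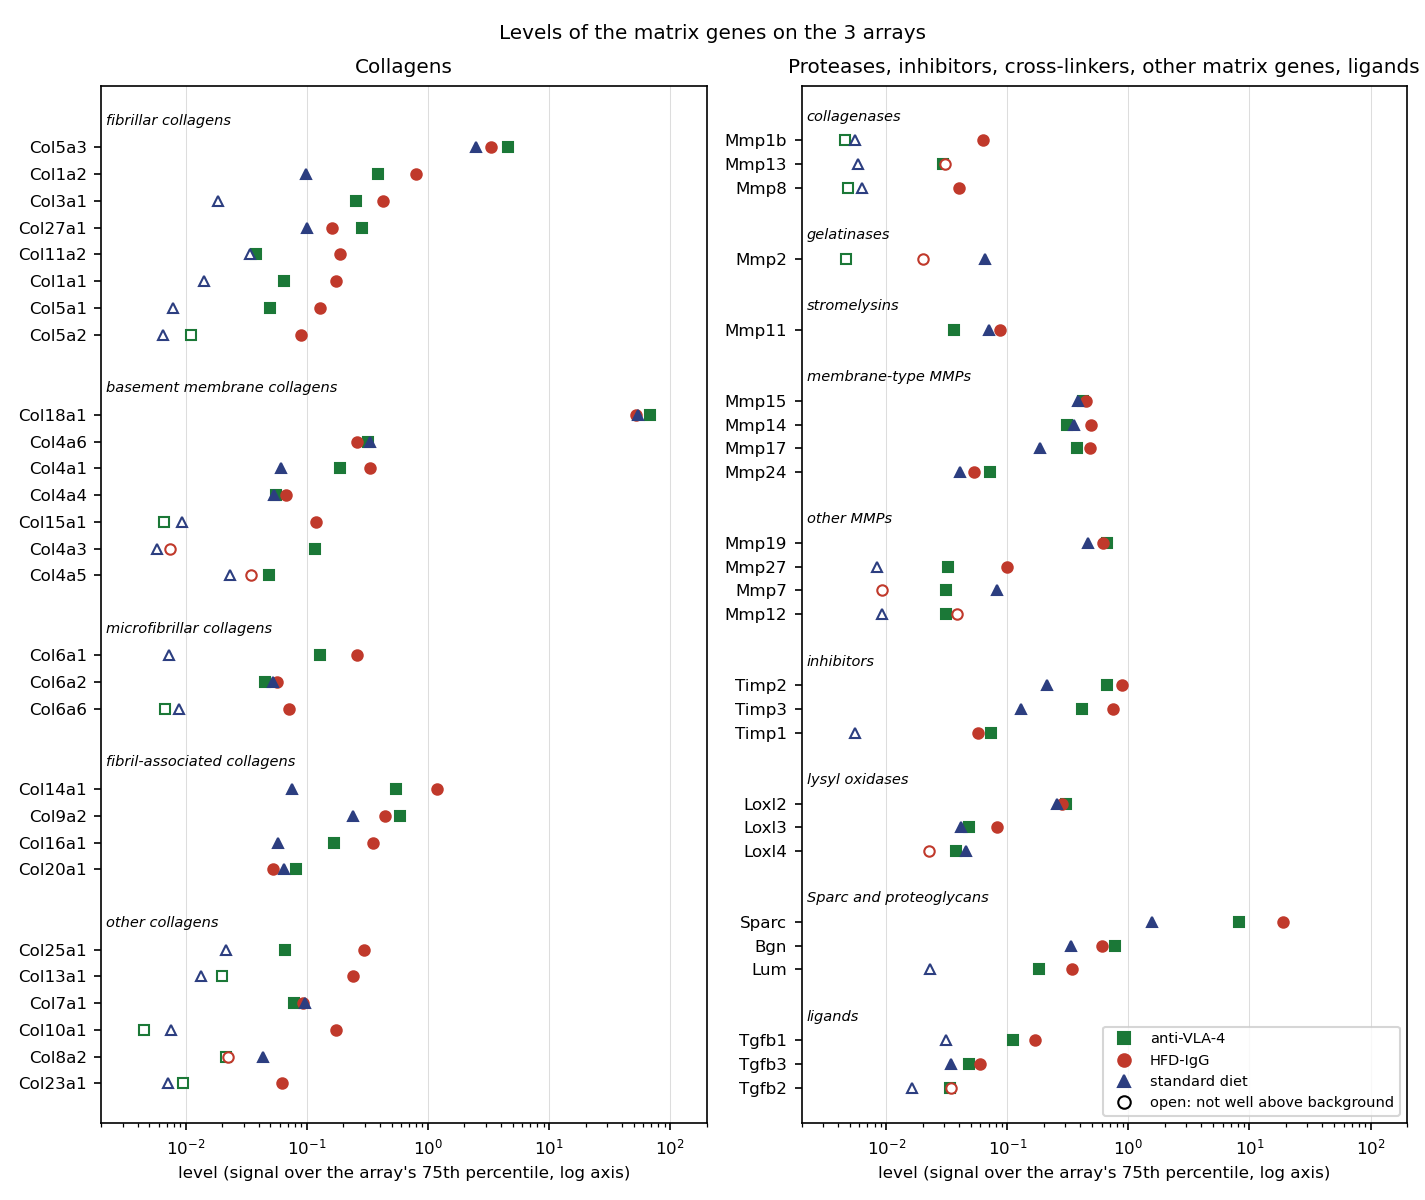
Level of the 53 matrix genes that were well above background on at least 1 array, on a log axis, grouped by role. Squares stand for the anti-VLA-4 array, circles for HFD-IgG and triangles for standard diet, and open symbols are not well above background. HFD-IgG lies to the right of standard diet for 21 of 26 compared collagens and for Timp1, Timp2 and Timp3, while Col18a1, Col6a2, Mmp15 and Loxl2 lie close together. Over all genes, 11672 of 21964 compared had a difference above 0.

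Of the fibrillar collagens, 6 of 8 compared genes were at least 2-fold higher on HFD-IgG than on standard diet, beside 20.4% of all genes. On anti-VLA-4, 5 of 8 were at least 2-fold lower than on HFD-IgG, beside 16.5% of all genes. Of these, the probes of Col1a1, Col5a2 and Col11a2 have 63.3%, 65% and 71.7% of A and G bases. In the class over 60%, 46.7% of all genes were lower. The probes of Col1a2 and Col5a1 have 51.7% and 45%. Col1a2, the second chain of type I collagen, had a level of 0.389 on anti-VLA-4, 0.789 on HFD-IgG and 0.0977 on standard diet. It was thereby 8.08-fold higher on HFD-IgG than on standard diet (log2 3.01), 2.03-fold lower on anti-VLA-4 than on HFD-IgG and 3.98-fold higher on anti-VLA-4 than on standard diet. Col1a1, the other chain of type I collagen, was at 0.0645 on anti-VLA-4 and 0.173 on HFD-IgG, and was not well above background on standard diet, where its measured level was 0.0141. Col1a1 was at least 6.72-fold higher on HFD-IgG than on standard diet, 2.68-fold lower on anti-VLA-4 than on HFD-IgG, and at least 2.51-fold higher on anti-VLA-4 than on standard diet. The pair of type I chains had the same order on the arrays. Col3a1, the single chain of type III collagen, had a level of 0.252 on anti-VLA-4 and 0.429 on HFD-IgG and was not well above background on standard diet (0.0184). Its bound of at least 16.7-fold on HFD-IgG over standard diet was the largest among the 48 genes, and it was 1.70-fold lower on anti-VLA-4 than on HFD-IgG.

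Of the 48 genes, 8 had a log2 difference of at least 3 between HFD-IgG and standard diet: Col3a1, Col14a1, Lum, Sparc, Col25a1, Col6a1, Col13a1 and Col1a2. The probes of 6 of them are shown by their first 30 bases on build mm9 with A and G, the purines, in capitals, because the share of genes called depended on the purine content of the probe. The Col1a2 stretch lies at chr6:4490619-4490648 (plus strand), Col3a1 at chr1:45405589-45405618 (plus), Col14a1 at chr15:55352264-55352293 (plus), Col6a1 at chr10:76171568-76171597 (minus), Lum at chr10:97035210-97035239 (plus) and Sparc at chr11:55208969-55208998 (minus).
Col1a2: AccAAGAAttccGtGtGGAGGttGGccccG
Col3a1: AtAAGccAAActctctGAAAccccAGcAAA
Col14a1: ctcGActtAcAGGGAttGctttGtAAAtGc
Col6a1: ccAcAttccccGtAAtctGAtccAAGccAG
Lum: tAAGcAtttGcAcGGttActtAGtGAAAct
Sparc: GGctGttccGcctGGGGAtAAGGtGctAAc
These probes hold 31, 29, 26, 22, 23 and 32 purines in 60 bases in the order given. The probes of Col25a1 and Col13a1 have 61.7% and 65% purines.

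Type V collagen, which starts type I fibrils, did not give 1 pattern. Col5a1 was at 0.0494 on anti-VLA-4 and 0.128 on HFD-IgG and not well above background on standard diet (0.00791). Col5a2 passed for HFD-IgG alone, at 0.0890, against 0.0111 on anti-VLA-4 and 0.00642 on standard diet. Both were higher on HFD-IgG than on standard diet, by at least 4.97-fold and at least 3.46-fold. Col5a3, the third chain, gave levels of 4.57 on anti-VLA-4, 3.30 on HFD-IgG and 2.51 on standard diet. Its array order was thus another one, with differences under 2-fold in every comparison and the highest level under anti-VLA-4. Col27a1 shared that order, at 0.285 on anti-VLA-4, 0.162 on HFD-IgG and 0.0994 on standard diet, and was 2.87-fold higher on anti-VLA-4 than on standard diet. Col11a2, a chain of cartilage collagen XI, was at 0.0377 on anti-VLA-4 and 0.187 on HFD-IgG and not well above background on standard diet (0.0340).

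Among the basement membrane collagens, 2 of 5 compared genes were at least 2-fold higher on HFD-IgG than on standard diet, beside 20.4% of all genes. Col4a1 (probe at chr8:11199009-11199068, minus strand) was measured by 9 spots on each array and had a level of 0.186 on anti-VLA-4, 0.329 on HFD-IgG and 0.0610 on standard diet. It was 5.39-fold higher on HFD-IgG than on standard diet, 1.77-fold lower on anti-VLA-4 than on HFD-IgG and 3.05-fold higher on anti-VLA-4 than on standard diet. The spots had an SD of 0.14 on anti-VLA-4, 0.15 on HFD-IgG and 0.19 on standard diet in log2 units, which is far below these differences, though spots of 1 array measure the scanner and not the mice. Col4a2, its partner in the collagen IV helix, was left out because its only spot carried an outlier mark on the HFD-IgG array. On the other arrays Col4a2 was at 0.251 on anti-VLA-4 and 0.203 on standard diet, a 1.24-fold difference.

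Col18a1, whose end fragment is endostatin and which hepatocytes express, was the brightest collagen probe. Its level was 68.3 on anti-VLA-4, 52.6 on HFD-IgG and 54.5 on standard diet, and a second probe gave 48.1, 45.0 and 40.2 on the same arrays. All differences of both probes were under 1.5-fold. Col15a1, the relative of Col18a1, passed on HFD-IgG alone, at 0.119, against 0.00660 on anti-VLA-4 and 0.00925 on standard diet, and its other 2 probes did not pass on any array. The probe used, of 65% purines, lies at chr4:47325273-47325332. A probe of 53.3% purines at chr4:47325261-47325320 overlaps most of it and was at 0.0205 on HFD-IgG, so the Col15a1 call rests on 1 probe. Col4a3 was the single gene at least 2-fold higher on anti-VLA-4 than on HFD-IgG, at 0.117 on anti-VLA-4 against 0.00744 on HFD-IgG and 0.00576 on standard diet, both not well above background, and that call was lost under normexp correction. Col4a4, the partner of Col4a3 in the same helix, was at 0.0559 on anti-VLA-4, 0.0678 on HFD-IgG and 0.0533 on standard diet by the probe used. A second Col4a4 probe passed on anti-VLA-4 alone, at 0.0424, with 0.0356 on HFD-IgG and 0.0264 on standard diet, so the probes did not give the same order. Col4a5, the third partner, passed on anti-VLA-4 alone, at 0.0489, with 0.0342 on HFD-IgG and 0.0231 on standard diet. Col4a6 was at 0.319 on anti-VLA-4, 0.259 on HFD-IgG and 0.334 on standard diet by the probe used.

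The collagens that decorate fibrils or form microfibrils held the largest difference measured on both arrays. Col14a1, which binds the surface of type I fibrils, had a level of 0.544 on anti-VLA-4, 1.19 on HFD-IgG and 0.0750 on standard diet. It was 15.9-fold higher on HFD-IgG than on standard diet (log2 3.99, scanner error 0.23), 2.19-fold lower on anti-VLA-4 than on HFD-IgG and 7.25-fold higher on anti-VLA-4 than on standard diet. Its second probe gave 0.0979 on anti-VLA-4, 0.322 on HFD-IgG and 0.0376, not well above background, on standard diet, which is the same order. Col16a1 was at 0.167 on anti-VLA-4, 0.353 on HFD-IgG and 0.0580 on standard diet, 6.08-fold higher on HFD-IgG than on standard diet. Col9a2 was at 0.592 on anti-VLA-4, 0.442 on HFD-IgG and 0.239 on standard diet, and only anti-VLA-4 over standard diet passed 2-fold, at 2.47. Col20a1 lay between 0.0520 and 0.0809 on all arrays, with no 2-fold difference.

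Type VI collagen is built from chains that must assemble together, yet its chains differed on these arrays. Col6a1 was at 0.128 on anti-VLA-4 and 0.261 on HFD-IgG and not well above background on standard diet (0.00726), at least 10.2-fold higher on HFD-IgG than on standard diet. Col6a2 was at 0.0448 on anti-VLA-4, 0.0567 on HFD-IgG and 0.0524 on standard diet, with no 2-fold difference. Col6a6 passed on HFD-IgG alone, at 0.0709, against 0.00677 on anti-VLA-4 and 0.00872 on standard diet. Its probe has 66.7% purines, and in the class over 60%, 46.9% of all genes were higher on HFD-IgG than on standard diet. A second Col6a6 probe, of 51.7% purines, did not pass on any array and was at 0.00691 on HFD-IgG. Col6a1, Col6a2 and Col6a6 each rest on a single spot per array by the probe used.

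Several collagens outside these classes passed on the HFD-IgG array and on no other. Col10a1, the collagen of hypertrophic cartilage, was at 0.173 on HFD-IgG, against 0.00453 on anti-VLA-4 and 0.00758 on standard diet, and its other probe, a different oligonucleotide, was at most 0.00639 on any array. Col13a1, a membrane-bound collagen, was at 0.242 on HFD-IgG, against 0.0199 on anti-VLA-4 and 0.0132 on standard diet. Col13a1 was at least 9.42-fold higher on HFD-IgG than on standard diet and at least 10.8-fold lower on anti-VLA-4 than on HFD-IgG. Col23a1 passed on HFD-IgG alone too, at 0.0622, against 0.00949 on anti-VLA-4 and 0.00713 on standard diet. All of them were at least 2-fold higher on HFD-IgG than on each other array. Col25a1, a membrane collagen of neurons, was at 0.0661 on anti-VLA-4 and 0.299 on HFD-IgG and not well above background on standard diet (0.0215). A second Col25a1 probe, of 50% purines, was at 0.0271, 0.0449 and 0.0159 on the same arrays. Its bound on HFD-IgG over standard diet was at least 1.75-fold, in place of at least 11.6-fold. Another Col25a1 probe passed on HFD-IgG alone, at 0.0801, and the last did not pass on any array. Col7a1 was at 0.0783 on anti-VLA-4, 0.0930 on HFD-IgG and 0.0959 on standard diet, with no 2-fold difference. Col8a2 passed on standard diet alone, at 0.0430, with 0.0215 on anti-VLA-4 and 0.0225 on HFD-IgG, and its bounds of at least 1.92-fold lower on anti-VLA-4 and at least 1.36-fold lower on HFD-IgG than on standard diet do not settle whether it differed by 2-fold.

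The Col25a1 probe is shown whole because it lies in the repeat that codes for the triple helix. Its 60 bases, at chr3:130270497-130270556 (plus strand, mm9), carry the letters GG, the start of a glycine codon, at every 9-base step, in 6 of 6 places, marked in capitals.
Col25a1: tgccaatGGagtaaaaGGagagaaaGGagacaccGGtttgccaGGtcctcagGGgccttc
The probe of Col13a1 has GG in 4 of 6 such places, and no other gene described here has more than 3. A run of this kind is rich in purines (37 of 60 in the Col25a1 probe). The probes of Col11a2, Col15a1 and Col5a2, which also gave their highest level on HFD-IgG, hold 43, 39 and 39 purines in 60 bases without that repeat. The first 30 bases are shown for Col11a2 and Col15a1, where 25 and 21 are purines, again in capitals. They lie at chr17:34203113-34203142 (plus) and chr4:47325273-47325302 (plus).
Col11a2: AAAGAAGAtAAAGAGAGAAAtGccAAAAAt
Col15a1: AcAcAtctGtcAAAAGAGAAAccAAAGAAA

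Across all genes, the purine share of the probe moved with the difference in both comparisons that use the HFD-IgG array. At least 2-fold higher on HFD-IgG than on standard diet were 8.25% of all genes with at most 40% purines in the probe, 12.1% with over 40 to 50%, 23.1% with over 50 to 60% and 46.9% with over 60%. The matrix genes gave 3 of 8, 7 of 16, 8 of 15 and 8 of 9 in the same classes. At least 2-fold lower on anti-VLA-4 than on HFD-IgG were 3.78%, 7.06%, 19.4% and 46.7% of all genes in these classes, and 1 of 7, 2 of 18, 7 of 16 and 8 of 10 of the matrix genes. At least 2-fold higher on anti-VLA-4 than on standard diet were 8.13%, 8.09%, 7.87% and 7.72% of all genes in the classes, while the matrix genes gave 4 of 8, 8 of 19, 5 of 13 and 2 of 5. The part of this dependence in the matrix differences was not tested.

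**Figure D2:**
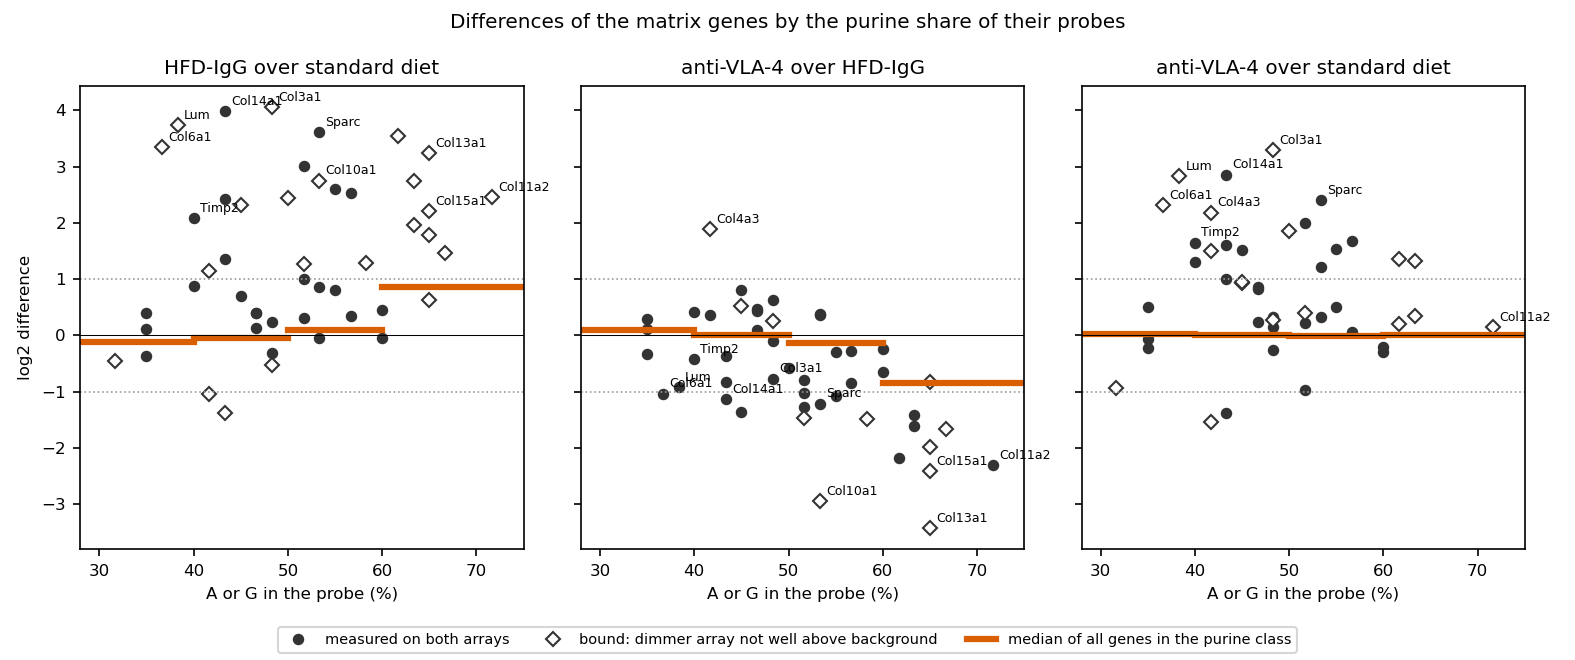
Log2 difference of each matrix gene (vertical axis) against the percent of A and G in its probe (horizontal axis) in the 3 comparisons. Filled circles are measured on both arrays, diamonds are bounds, and orange bars give the median of all genes in each purine class. The median of all genes over 60% purines is 0.86 for HFD-IgG over standard diet and -0.85 for anti-VLA-4 over HFD-IgG.

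Among probes of at most 50% purines, 10 of 26 matrix genes were at least 2-fold higher on HFD-IgG than on standard diet, beside 10.8% of all genes. In anti-VLA-4 over HFD-IgG, 3 of 28 were lower (Col14a1, Col5a1 and Col6a1), beside 6.06% of all genes, and the median of the matrix genes was 0.00. On anti-VLA-4 against standard diet, 12 of 29 were higher, beside 7.94% of all genes. Where both arrays were well above background, 9 of 26 were higher on HFD-IgG than on standard diet beside 8.87% of all genes. The same filter gave 11 of 36 lower on anti-VLA-4 than on HFD-IgG beside 6.76%, and 11 of 28 higher on anti-VLA-4 than on standard diet beside 5.84%.

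The calls against standard diet and the calls against HFD-IgG differed in how far they depended on scaling. Under quantile scaling, cyclic loess scaling, scaling on bright genes and normexp background correction, 19 of the 26 genes higher on HFD-IgG than on standard diet were called each time, among them Col1a1, Col1a2, Col3a1, Col4a1, Col14a1, Sparc, Lum, Timp2, Timp3 and Tgfb1. Of the 19 higher on anti-VLA-4 than on standard diet it was 16. Of the 18 lower on anti-VLA-4 than on HFD-IgG it was 1, Sparc, since normexp correction kept 1 and quantile scaling 9 of these calls. Quantile scaling placed 9 matrix genes lower and 9 higher in that comparison, beside 9.1% and 10.9% of all genes, and normexp correction placed 1 lower, beside 0.665%. Normexp correction moved the median of all genes to 0.48 for HFD-IgG over standard diet, -0.14 for anti-VLA-4 over HFD-IgG and 0.28 for anti-VLA-4 over standard diet. It called 40.7% of all genes higher on HFD-IgG than on standard diet and 30.3% higher on anti-VLA-4, in place of 20.4% and 7.99%. All 26 and all 19 matrix calls above standard diet held under it. How many of all genes kept their calls was not counted. Under quantile scaling the split of all calls in HFD-IgG over standard diet was 47.4% higher, in place of 89.4%, and for anti-VLA-4 over HFD-IgG it was 54.5% higher in place of 10.3%. For anti-VLA-4 over standard diet it was 57.2% in place of 70.2%, and 93.6% under normexp correction.

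Of the metalloproteinases, which cut collagen and other matrix, 3 of 11 were at least 2-fold higher on HFD-IgG than on standard diet and 2 lower, with 9 of 11 above 0 and a median log2 difference of 0.40. Over all genes, 11672 of 21964 were above 0, with a median of 0.04. On anti-VLA-4, 3 of 12 were at least 2-fold lower than on HFD-IgG, while 1 of 11 was higher and 2 were lower than on standard diet. The 3 of 11, 3 of 12 and 1 of 11 are 27.3%, 25% and 9.09%, beside 20.4%, 16.5% and 7.99% of all genes. The 2 lower are 18.2% in each comparison with standard diet, beside 2.42% and 3.39% of all genes. Of the 6 membrane-type enzymes, 4 were well above background on every array. Mmp14, which activates pro-Mmp2 at the cell surface, was at 0.311 on anti-VLA-4, 0.487 on HFD-IgG and 0.357 on standard diet. Mmp15 was at 0.422 on anti-VLA-4, 0.451 on HFD-IgG and 0.380 on standard diet, and Mmp19, a soluble enzyme, at 0.667, 0.616 and 0.468 on the same arrays. None of these had a 2-fold difference. Mmp17, a membrane enzyme held by a lipid anchor, was at 0.374 on anti-VLA-4, 0.480 on HFD-IgG and 0.187 on standard diet. Mmp17 was 2.57-fold higher on HFD-IgG than on standard diet and just over 2-fold higher on anti-VLA-4 than on standard diet. Mmp24 stayed between 0.0407 and 0.0719.

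Both genes that were lower on HFD-IgG than on standard diet were metalloproteinases. Mmp2, the gelatinase that fibroblasts and stellate cells secrete (probe at chr8:95376840-95376899, plus strand), was well above background on standard diet alone, at 0.0648, with 0.00466 on anti-VLA-4 and 0.0203 on HFD-IgG. It was at least 2.06-fold lower on HFD-IgG than on standard diet and at least 2.89-fold lower on anti-VLA-4 than on standard diet. Mmp7, matrilysin, an epithelial enzyme, was at 0.0314 on anti-VLA-4 and 0.0817 on standard diet and not well above background on HFD-IgG (0.00931). The calls of Mmp2 and Mmp7 were lost under normexp correction, where Mmp7 had a log2 difference of 1.23 between anti-VLA-4 and standard diet in place of -1.38. Each rests on 1 spot per array near the limit of background.

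The collagenases and other secreted enzymes lay close to background. Mmp8, the neutrophil collagenase, passed on HFD-IgG alone at 0.0396, with 0.00484 on anti-VLA-4 and 0.00636 on standard diet. Mmp1b passed on HFD-IgG alone at 0.0629, with 0.00456 on anti-VLA-4 and 0.00547 on standard diet, and was at least 2-fold higher there than on either of them. Mmp13, the main rodent interstitial collagenase, passed on anti-VLA-4 alone at 0.0295, with 0.0303 on HFD-IgG and 0.00588 on standard diet. Mmp12, macrophage elastase, passed on anti-VLA-4 alone at 0.0310, with 0.0384 on HFD-IgG and 0.00916 on standard diet. For Mmp12 and Mmp13 the HFD-IgG level was no lower than the anti-VLA-4 level although it did not pass there. Mmp11 was at 0.0360 on anti-VLA-4, 0.0874 on HFD-IgG and 0.0708 on standard diet, 2.42-fold lower on anti-VLA-4 than on HFD-IgG. A second Mmp11 probe did not pass on any array, at 0.0176 on anti-VLA-4, 0.0159 on HFD-IgG and 0.0296 on standard diet. Mmp27 was at 0.0326 on anti-VLA-4 and 0.0998 on HFD-IgG and not well above background on standard diet (0.00832). A second Mmp27 probe passed on anti-VLA-4 alone, at 0.0301, with 0.0215 on HFD-IgG and 0.00540 on standard diet. The probes of Mmp27 thus did not give the same order.

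The inhibitors gave 1 pattern, with all 3 compared Timps at least 2-fold higher on both high-fat diet arrays than on standard diet and none 2-fold apart between anti-VLA-4 and HFD-IgG. Timp1, the inducible inhibitor of injured liver, was at 0.0729 on anti-VLA-4 and 0.0570 on HFD-IgG and not well above background on standard diet (0.00557). It was at least 2.22-fold higher on HFD-IgG than on standard diet and at least 2.84-fold higher on anti-VLA-4 than on standard diet, and only the second of these calls held under every scaling. Timp2, which also takes part in Mmp2 activation (probe at chr11:118163146-118163205, minus strand), was at 0.662 on anti-VLA-4, 0.890 on HFD-IgG and 0.211 on standard diet. It was 4.22-fold higher on HFD-IgG than on standard diet, 1.35-fold lower on anti-VLA-4 than on HFD-IgG and 3.14-fold higher on anti-VLA-4 than on standard diet. A second Timp2 probe, at 0.134 on anti-VLA-4, 0.384 on HFD-IgG and 0.0240, not well above background, on standard diet, gave the same order. Timp3, which is bound to the matrix and inhibits ADAM17, was at 0.415 on anti-VLA-4, 0.746 on HFD-IgG and 0.130 on standard diet, 5.76-fold higher on HFD-IgG than on standard diet. The probe of Timp1 has 41.7% purines, that of Timp2 40% and that of Timp3 56.7%, a class in which 23.1% of all genes were at least 2-fold higher on HFD-IgG than on standard diet.

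Sparc, a collagen-binding protein of fibroblasts and endothelium (probe at chr11:55208939-55208998, minus strand), was the brightest of the genes with a 2-fold difference. It was at 8.20 on anti-VLA-4, 19.0 on HFD-IgG and 1.55 on standard diet. Sparc was 12.2-fold higher on HFD-IgG than on standard diet, 2.32-fold lower on anti-VLA-4 than on HFD-IgG, and 5.27-fold higher on anti-VLA-4 than on standard diet. A second, dimmer probe gave 0.226 on anti-VLA-4, 0.390 on HFD-IgG and 0.0394 on standard diet, and its anti-VLA-4 over HFD-IgG difference was -0.78 in place of -1.22 on the log2 scale. Lum, lumican, which spaces collagen fibrils, was at 0.182 on anti-VLA-4 and 0.344 on HFD-IgG and not well above background on standard diet (0.0232), at least 13.4-fold higher on HFD-IgG than on standard diet. Bgn, biglycan, was at 0.781 on anti-VLA-4, 0.610 on HFD-IgG and 0.338 on standard diet. Its highest level was thus under anti-VLA-4, 2.31-fold above standard diet.

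**Figure D3:**
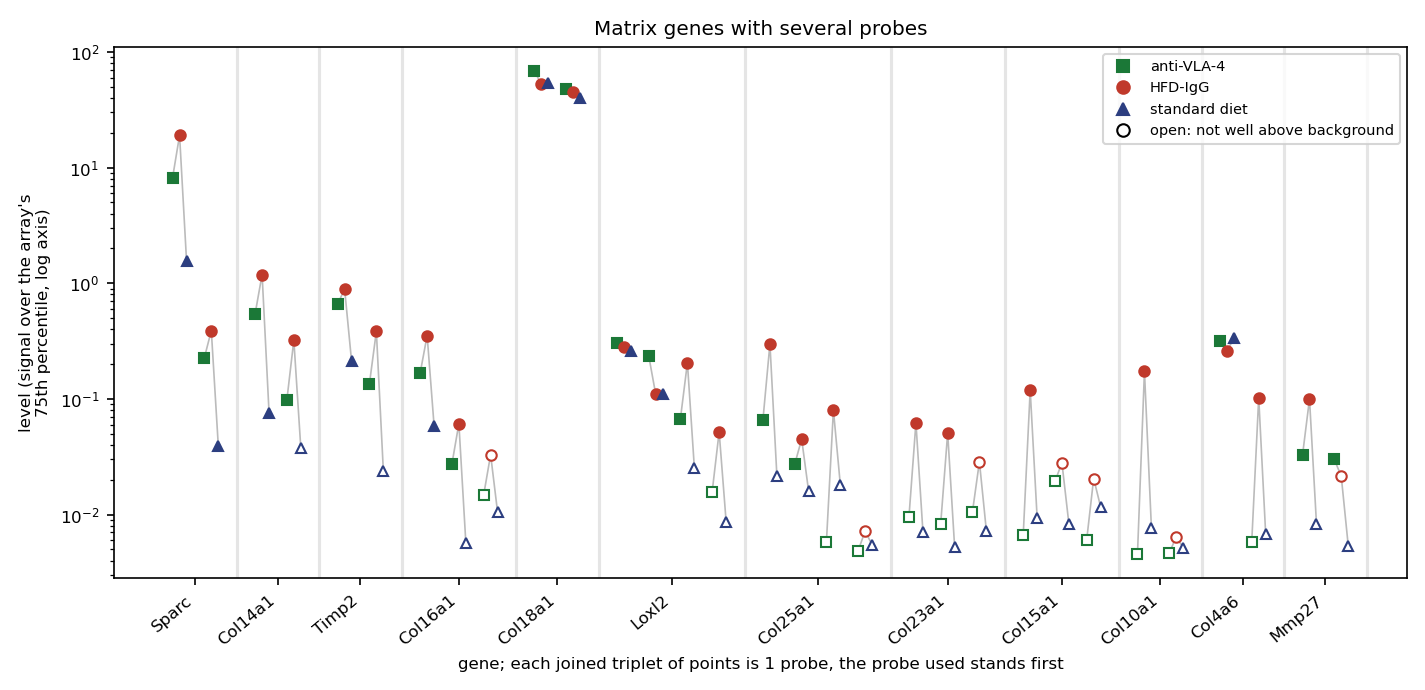
Levels of all probes of 12 matrix genes that have several, on a log axis, with squares for anti-VLA-4, circles for HFD-IgG, triangles for standard diet and open symbols where not well above background. The probes of Sparc, Col14a1 and Timp2 give the same order of arrays, and those of Col18a1 are flat. Those of Loxl2, Col4a6 and Mmp27 disagree.

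The cross-linking enzymes gave no shared picture. Loxl2, the lysyl oxidase-like enzyme most studied in liver fibrosis, was at 0.304 on anti-VLA-4, 0.284 on HFD-IgG and 0.258 on standard diet by the probe used. A dimmer Loxl2 probe gave 0.0675 on anti-VLA-4 and 0.205 on HFD-IgG and was not well above background on standard diet (0.0251), so its probes disagreed. Loxl3 was at 0.0480 on anti-VLA-4, 0.0828 on HFD-IgG and 0.0413 on standard diet, 2.01-fold higher on HFD-IgG than on standard diet, but its log2 difference was -0.031 under quantile scaling. Loxl4 was at 0.0376 on anti-VLA-4 and 0.0452 on standard diet and not well above background on HFD-IgG (0.0227). Lox itself did not pass on any array.

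Of the ligands, Tgfb1, the TGF-beta of macrophages, platelets and stellate cells, was measured by 8 spots (probe at chr7:26489877-26489936, plus strand) and was at 0.112 on anti-VLA-4 and 0.168 on HFD-IgG and not well above background on standard diet (0.0310). It was at least 5.43-fold higher on HFD-IgG than on standard diet, at least 3.62-fold higher on anti-VLA-4 than on standard diet, and its log2 difference between anti-VLA-4 and HFD-IgG was -0.59. Tgfb3 was at 0.0484 on anti-VLA-4, 0.0594 on HFD-IgG and 0.0340 on standard diet, without a 2-fold difference. Tgfb2 passed on anti-VLA-4 alone, at 0.0338, with 0.0343 on HFD-IgG and 0.0163 on standard diet.

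The promoters of Col1a2 and Col3a1, which gave among the largest differences, are shown as the 250 bases before the gene start from RefSeq (GRCm38.p6, plus strand), at chr6:4505368-4505617 and chr1:45311288-45311537. Capitals mark matches on either strand to CCAAT (the NF-Y box), GGGCGG (the Sp1 box), CAGAC (the Smad box) and TATAAA, and the AP-1 motif TGANTCA has no match in these windows.
Col1a2: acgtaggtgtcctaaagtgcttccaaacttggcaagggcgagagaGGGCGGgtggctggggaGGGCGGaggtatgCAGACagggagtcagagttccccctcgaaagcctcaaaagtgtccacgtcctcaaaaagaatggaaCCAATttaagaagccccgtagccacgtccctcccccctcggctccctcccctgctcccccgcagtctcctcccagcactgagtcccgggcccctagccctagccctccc
Col3a1: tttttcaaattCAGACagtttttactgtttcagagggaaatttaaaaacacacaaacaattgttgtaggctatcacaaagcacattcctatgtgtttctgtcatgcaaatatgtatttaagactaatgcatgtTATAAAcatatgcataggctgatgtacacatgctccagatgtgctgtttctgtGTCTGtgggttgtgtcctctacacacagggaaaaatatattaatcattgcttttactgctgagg
Col1a2 has 1 CCAAT, 2 GGGCGG and 1 CAGAC, and Col3a1 has 2 CAGAC and 1 TATAAA. Of the 78 genes, 58 had a promoter that was used, with 64 entries in all. A gene counts as having a motif where any of its entries matches, while the share of all promoters is per entry, so the units differ. CCAAT was in 17 of the 58 genes (29.3%), beside 33.8% of all 32851 promoters, GGGCGG in 30 (51.7%, beside 32.7%) and CAGAC in 28 (48.3%, beside 42.2%). TGANTCA was in 9 (15.5%, beside 6.75%) and TATAAA in 14 (24.1%, beside 12.4%). A match describes the letters only, and no match overlaps another in the 2 windows shown.

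Markers of several cell types other than hepatocytes were well above background on the arrays. The medians of their lists lay above 0 in HFD-IgG over standard diet, as did that of the matrix genes. The 16 hepatocyte markers were all well above background, with a summed level of 4580 on anti-VLA-4, 4622 on HFD-IgG and 5024 on standard diet, so the labelled cell type is borne out by Alb, Serpina1a, Fgb and Cyp2e1. The 20 stellate cell and fibroblast markers, none of which is among the 78 genes, summed to 28.4 on anti-VLA-4, 47.3 on HFD-IgG and 8.80 on standard diet, and 15 of 20 were at least 2-fold higher on HFD-IgG than on standard diet. Among them Dcn, decorin, was at 6.76 on anti-VLA-4, 13.1 on HFD-IgG and 1.39 on standard diet. The 18 sinusoidal endothelial markers summed to 49.2 on anti-VLA-4, 89.2 on HFD-IgG and 20.0 on standard diet, with 16 of 18 higher on HFD-IgG than on standard diet. The 15 Kupffer cell and macrophage markers summed to 56.5 on anti-VLA-4, 75.01 on HFD-IgG and 11.3 on standard diet, with 15 of 15 higher. Of all genes, 20.4% were at least 2-fold higher on HFD-IgG than on standard diet. A summed level is set mostly by the brightest probes of its list. The marker lists were not compared under the other scalings or by the purine share of their probes. Fewer cells of a type and less RNA per cell cannot be told apart in RNA of bulk samples. The part of these cells in the matrix differences was not tested.

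The marker lists also differed between anti-VLA-4 and HFD-IgG. The median log2 difference was -0.86 over the stellate cell and fibroblast list, -0.98 over the sinusoidal endothelial list and -0.44 over the Kupffer cell and macrophage list, beside -0.59 over the matrix genes and 0.23 over the hepatocyte list. Against standard diet, the medians on anti-VLA-4 were 1.30, 1.78 and 2.498 for these lists, 0.82 for the matrix genes and -0.23 for the hepatocyte list. The 9 portal fibroblast markers summed to 1.35 on anti-VLA-4, 2.62 on HFD-IgG and 0.949 on standard diet, with Dpt and Fbln1 not well above background on any array. None of the 5 mesothelial markers passed on any array, and the 12 neutrophil and monocyte markers summed to 62.9 on anti-VLA-4, 72.6 on HFD-IgG and 68.1 on standard diet. Of these, 4 of 10 compared were at least 2-fold higher on anti-VLA-4 than on standard diet, with a median log2 difference of 0.92, and 4 of 10 on HFD-IgG, with a median of 0.74. The shares of all genes were 7.99% and 20.4%, with medians of 0.00 and 0.04. In each of these comparisons 4 of the 10 differences are bounds. The 7 cholangiocyte markers summed to 0.766 on anti-VLA-4, 1.25 on HFD-IgG and 0.514 on standard diet.

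**Figure D4:**
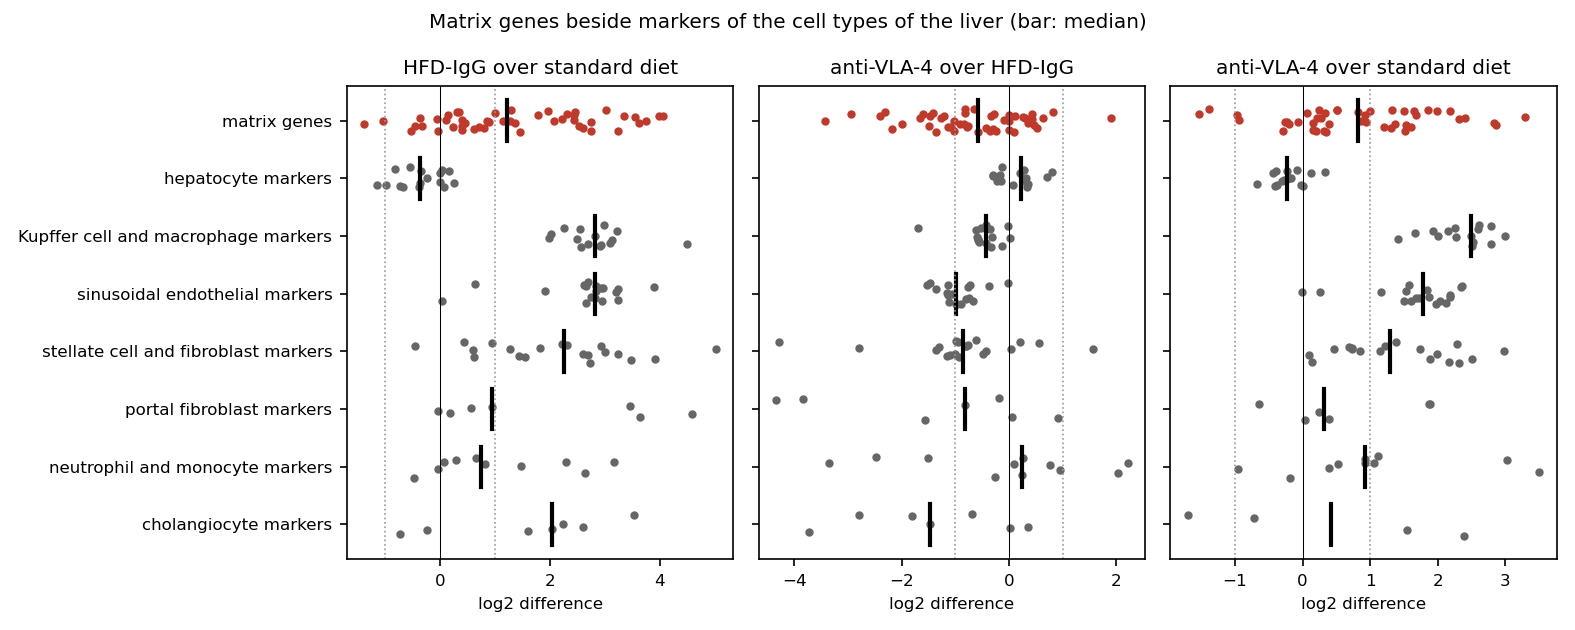
Log2 difference of each gene (points) and median (bars) for the matrix genes and for markers of the cell types of the liver, in the 3 comparisons, with a bound of under 1-fold drawn at 0. Kupffer cell, endothelial and stellate cell markers have medians of 2.83, 2.83 and 2.26 in HFD-IgG over standard diet, above the 1.21 of the matrix genes, while the hepatocyte median is -0.36.

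Of the genes that fold, modify and secrete collagen, the brightest were level between arrays. Of 22 compared, 8 were at least 2-fold higher on HFD-IgG than on standard diet and none lower, with a median of 0.25. P4hb, a subunit of prolyl 4-hydroxylase, was at 44.2 on anti-VLA-4, 34.0 on HFD-IgG and 37.4 on standard diet, and Ppib, a prolyl isomerase, at 31.8, 23.8 and 26.7 on the same arrays. Bmp1, the procollagen C-proteinase, was at 22.8 on anti-VLA-4, 20.4 on HFD-IgG and 22.6 on standard diet. On anti-VLA-4, 6 of 22 lay below HFD-IgG and none above, while 4 of 21 lay above standard diet and 1 below. Of all genes, 20.4% were higher on HFD-IgG than on standard diet, 16.5% lower on anti-VLA-4 than on HFD-IgG and 7.99% higher on anti-VLA-4 than on standard diet.

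Of the genes of TGF-beta activation, receptors and signalling, 13 of 23 were at least 2-fold higher on HFD-IgG than on standard diet, 6 of 24 lower on anti-VLA-4 than on HFD-IgG and 8 of 22 higher on anti-VLA-4 than on standard diet, beside the 20.4%, 16.5% and 7.99% of all genes. The 6 of 24 are 25% of the list. Ltbp4, which anchors latent TGF-beta in the matrix, was at 2.53 on anti-VLA-4, 5.27 on HFD-IgG and 0.752 on standard diet. Smad4, the shared signal transducer, was at 3.26, 2.88 and 3.53 on the same arrays, and Tgfbr2, the type II receptor, at 1.48, 1.96 and 1.98. Smad4 and Tgfbr2 thus had no 2-fold difference, unlike Ltbp4.

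Of the other matrix proteins, 16 of 28 were at least 2-fold higher on HFD-IgG than on standard diet, 12 of 29 lower on anti-VLA-4 than on HFD-IgG and 9 of 27 higher on anti-VLA-4 than on standard diet, beside the same shares of all genes. The brightest are liver plasma proteins and did not share this. Vtn, vitronectin, was at 259 on anti-VLA-4, 212 on HFD-IgG and 221 on standard diet. Fn1, fibronectin, a ligand of VLA-4, was at 170.4 on anti-VLA-4, 105 on HFD-IgG and 137 on standard diet. Ecm1, which stellate cells express, was at 6.38 on anti-VLA-4, 12.9 on HFD-IgG and 1.60 on standard diet, 2-fold apart in both comparisons with HFD-IgG.

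Read against those shares too, of the collagen receptors and uptake genes, 4 of 8 were at least 2-fold higher on HFD-IgG than on standard diet, 2 of 8 lower on anti-VLA-4 than on HFD-IgG, and 2 of 7 higher and 1 lower on anti-VLA-4 than on standard diet. Itgb1, the beta chain shared by the collagen-binding integrins and by VLA-4, was at 2.64 on anti-VLA-4, 2.32 on HFD-IgG and 2.66 on standard diet. Mrc1, the mannose receptor of endothelium and macrophages, which takes up collagen fragments, was at 1.60 on anti-VLA-4, 2.54 on HFD-IgG and 0.353 on standard diet. Of the other proteases and their regulators, 11 of 25 were higher and 1 lower on HFD-IgG than on standard diet, 2 of 24 lower on anti-VLA-4 than on HFD-IgG, and 8 of 24 higher and 2 lower on anti-VLA-4 than on standard diet. The 2 of 24 are 8.33% of the list, below the 16.5% of all genes, and the 2 of 8 of the receptors are 25%. Plg, plasminogen, which hepatocytes make, was at 166 on anti-VLA-4, 133 on HFD-IgG and 131 on standard diet, and Ctsb, the lysosomal protease cathepsin B, at 74.0, 66.3 and 45.8.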

How the data were processed

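Total RNA of 3 groups was labelled with Cy3 and read on 1-colour arrays, 1 per group. The deposited spot intensity values come from Agilent Feature Extraction 11.0.1.1, as named in the submitters' processing notes. Per the file headers, it subtracted the background and detrended the array. The value table that the authors deposited is a linear ratio, the processed signal over the array's 75th percentile, for 23206 spots, and its column medians are 0.81 for anti-VLA-4, 0.80 for HFD-IgG and 0.79 for standard diet. Per the file headers, the flags for background and outliers are other values from the same software. No column was left unmatched to a sample.

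The level used here is log2 of the processed signal over the 75th percentile of 43020 non-control spots. Marked outlier spots were left out (141 on anti-VLA-4, 158 on HFD-IgG, 117 on standard diet), spots of a probe averaged, and each gene took its brightest probe by mean log2 level. Comparison required 1 of the 2 arrays to pass background. Where the dimmer one did not, the fold is a bound against its own signal or the array's lowest passing signal, whichever is higher, and a bound under 1-fold counts as 0 in a median. Positions are those in the files, build mm9, which give no exon or UTR. No test was run, since a group is 1 array, and the number of arrays limits the precision. The scanner's own error of a measured log2 difference was 0.20 to 0.42 for these genes, and covers neither mice nor labelling. Genes at least 2-fold different were counted beside all genes.

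Members, lists and the rule for named genes (those at least 2-fold different in a comparison, with the main matrix genes, and up to 4 of each pathway or marker list by level) were chosen with earlier results of these data known. Python 3.11.15, pandas 2.3.3, R 4.3.3 and limma 3.58.1 were used for quantile, cyclic loess and normexp (offset 50) alternatives. The counting was tested on simulated arrays in which the changed genes were bright and passed on every array. Bounds were checked on made-up values only. In the data, 9 of the 26 genes higher on HFD-IgG than on standard diet passed on both arrays, so the simulation does not cover most of these calls.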

Additional observations from a re-analysis of the deposited data

Results flagged for a closer look

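These values lie outside the comparisons above, in probes or spots that were not used. The second probe of Col4a6 was at least 3.98-fold higher on HFD-IgG than on standard diet, where the probe used was 1.29-fold lower. Its level was 0.00579 on anti-VLA-4, 0.102 on HFD-IgG and 0.00675 on standard diet, and only HFD-IgG was well above background.

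Loxl2 has 3 further probes. The one with levels of 0.0675 on anti-VLA-4, 0.205 on HFD-IgG and 0.0251 on standard diet was at least 7.99-fold higher on HFD-IgG than on standard diet and at least 2.62-fold higher on anti-VLA-4 than on standard diet. Another was well above background on HFD-IgG alone, at 0.0519, at least 2.02-fold above standard diet. The last, with levels of 0.237 on anti-VLA-4, 0.110 on HFD-IgG and 0.109 on standard diet, was 2.17-fold higher on anti-VLA-4 than on standard diet. The files place that probe on chromosome 2 and the other Loxl2 probes on chromosome 14, so its gene is uncertain.

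The Col4a2 spot that carries an outlier mark on HFD-IgG had a level of 28.2 there, against 0.251 on anti-VLA-4 and 0.203 on standard diet. The part of the mark in that level was not tested. No group had enough arrays for a search for outlying samples.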

How the results depend on the processing

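No paired analysis was possible because each group has 1 array and the labels give no replicate numbers, and no replicate could be left out. Array number and signal over background limit every value here, since 22 of 48, 15 of 51 and 17 of 45 differences are bounds. Alternatives are given for at least 2-fold higher, lower and the median log2 difference of the matrix genes. In HFD-IgG over standard diet (26, 2 and 1.21), quantile scaling gave 6 lower and 0.39. Normexp correction gave 0 lower and 1.88, beside 40.7% of all genes higher, 3.91% lower and a median of 0.48. Requiring both arrays well above background gave 9, 0 and 0.58, a level above the 75th percentile on an array 2, 0 and 2.004, and the deposited values 10, 0 and 0.449. Probes of at most 50% purines gave 10 higher and 0.67, a 3-fold threshold 0 lower, no filter a median of 0.70 and the mean over probes 0.85.

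For the antibody against IgG (1, 18 and -0.59), quantile scaling gave 9, 9 and -0.14 and normexp correction 0 higher and 1 lower. Both arrays well above background gave 0 and 11, a level above the 75th percentile 0 and 2, and the deposited values 0 higher, 5 lower and -0.279. Probes of at most 50% purines gave 3 lower and a median of 0.00, a 3-fold threshold 8 lower, and no filter and a 1.5-fold threshold 3 higher each. In anti-VLA-4 over standard diet (19, 2 and 0.82), quantile scaling gave 4 lower and 0.50, cyclic loess 4 lower, and normexp correction 35, 0 and 1.48. Of all genes, normexp correction placed 30.3% higher and 2.07% lower, in place of 7.99% and 3.39%, with a median of 0.28. Both arrays well above background gave 11, 1 and 0.51, the mean over probes a median of 0.51, no filter 29, 6 and 0.33, a level above the 75th percentile 1 and 0, the deposited values 12 and 0, and a 3-fold threshold 11 and 0. A 1.5-fold threshold gave 4 lower, and probes of at most 50% purines 12 higher. Without a filter 10.7% of all genes were higher and 5.74% lower, and at the 3-fold threshold 3.66% and 1.29%. Except where a threshold or filter sets it by construction, the cause was not tested. Among single genes, Loxl3 had a log2 difference of -0.031 in HFD-IgG over standard diet under quantile scaling and Mmp7 1.23 in anti-VLA-4 over standard diet under normexp correction. Keeping marked spots, an alternative chosen after seeing the data, moved none of these counts by over 1.5 times. Of the alternative values of single genes, 1036 lay within the scanner error of the value used, 233 moved further and 2 reversed. Only differences of at least 2-fold could count as reversed, so sign changes of smaller ones are not counted separately. The filters on both arrays and on the 75th percentile reuse the same values (90 and 11 of the 1036). The deposited values are the same signal over the same percentile (79), and scaling on bright genes shifts each array by a constant (144). Without a filter measured differences do not change, and the mean over probes does not change genes of 1 probe. Much of the 1036 was thus fixed in advance and is no check of stability. Quantile scaling moved 63 values and normexp correction 88.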
